A study of Mus musculus with 5 samples.

Results

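The genes described here encode the subunits of the receptors for GABA, glycine and glutamate, in mouse cerebellar tumours. They were chosen by gene symbol alone: GABA-A subunits (Gabra, Gabrb, Gabrg, Gabrd, Gabre, Gabrp, Gabrq and Gabrr), GABA-B subunits (Gabbr), glycine receptor subunits (Glra and Glrb), ionotropic glutamate receptor subunits (Gria, Grik, Grin and Grid) and metabotropic glutamate receptors (Grm). The rule found 50 of the 17739 genes in the deposited table. Of these, 45 are described, and each of the 45 matched 1 protein-coding gene in the GENCODE M21 annotation of GRCm38. RNA-seq values came from 5 tumours of a single group, numbered 1, 5, 8, 14 and 15 in their titles. All 5 came from Math1-Cre;Gli2A mice, in which Cre is driven by Math1 (Atoh1), a gene of granule neuron progenitors, and the Gli2A allele is listed at R26. The mice received a doxycycline diet from conception (embryonic day 0), and the labels give GLI2 as active in every sample. Cells were taken from cerebella with tumours, dispersed with papain and used at once for RNA. The labels do not give the age or sex of the animals, nor do they say that each number is a separate animal, so the spread between these samples may be partly technical. There was no untreated or tumour-free group, and the question that can be asked is which receptor genes these tumours expressed and how far the tumours differed.

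GABA and glycine open chloride channels made of 5 subunits, and glutamate opens cation channels made of 4 subunits, so the mix of subunits sets the properties of each receptor. GABA-B and the metabotropic glutamate receptors instead act through G proteins. In the cerebellum, granule neurons exchange subunits as they mature. The GABA-A subunits α6 and δ and the NMDA subunit GluN2C are known as products of mature granule neurons, whereas GluN2B and α2 are typical of immature neurons.

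Values are the deposited log2 levels, which are not corrected for transcript length. For comparisons between genes, the log2 of the exon length in kilobases was subtracted, and the result is called the per-kilobase level. Of the 45 genes, 35 (77.8%) had a mean deposited log2 level of at least 5, against 77.2% of all genes. By deposited level, 15 of the 45 lay above the median of all genes, and by per-kilobase level 11 of the 45 did, against 50% of all genes by construction. The mean over tumours of the receptor genes' median per-kilobase level was 5.09, and that of all genes was 6.49. As bulk RNA was measured, fewer cells of a type and less RNA per cell cannot be told apart in any value given here.

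The same 3 of the genes described had the highest per-kilobase levels in every tumour. Among the genes described, the 3 highest per-kilobase levels were those of Gabbr1 (9.22 ± 0.12, SD, n = 5), Grik5 (9.11 ± 0.07) and Gria2 (8.95 ± 0.21). These were not ordered among themselves beyond their spread, since Gabbr1 exceeded Grik5 in 4 of 5 tumours and Grik5 exceeded Gria2 in 3 of 5. Gria2 exceeded the next gene, Gria4 (8.35 ± 0.18), in 5 of 5 tumours. Grm4 (8.24 ± 0.22), Gabbr2 (8.05 ± 0.09), Gria1 (7.76 ± 0.27), Grik2 (7.66 ± 0.15), Glrb (7.54 ± 0.11), Grik3 (7.19 ± 0.40) and Grin1 (6.93 ± 0.21) were the other described genes above the median of all genes. From Gria4 down to Grin1, no gene exceeded the next in all 5 tumours. Below the median lay a dense middle group, from Grid1 (6.25 ± 0.12) down to Grin2d (3.91 ± 0.24) on the per-kilobase scale. Most neighbours within it overlapped. Grin2a (2.67 ± 0.14) lay below Grin2d in 5 of 5 tumours.

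**Figure D1:**
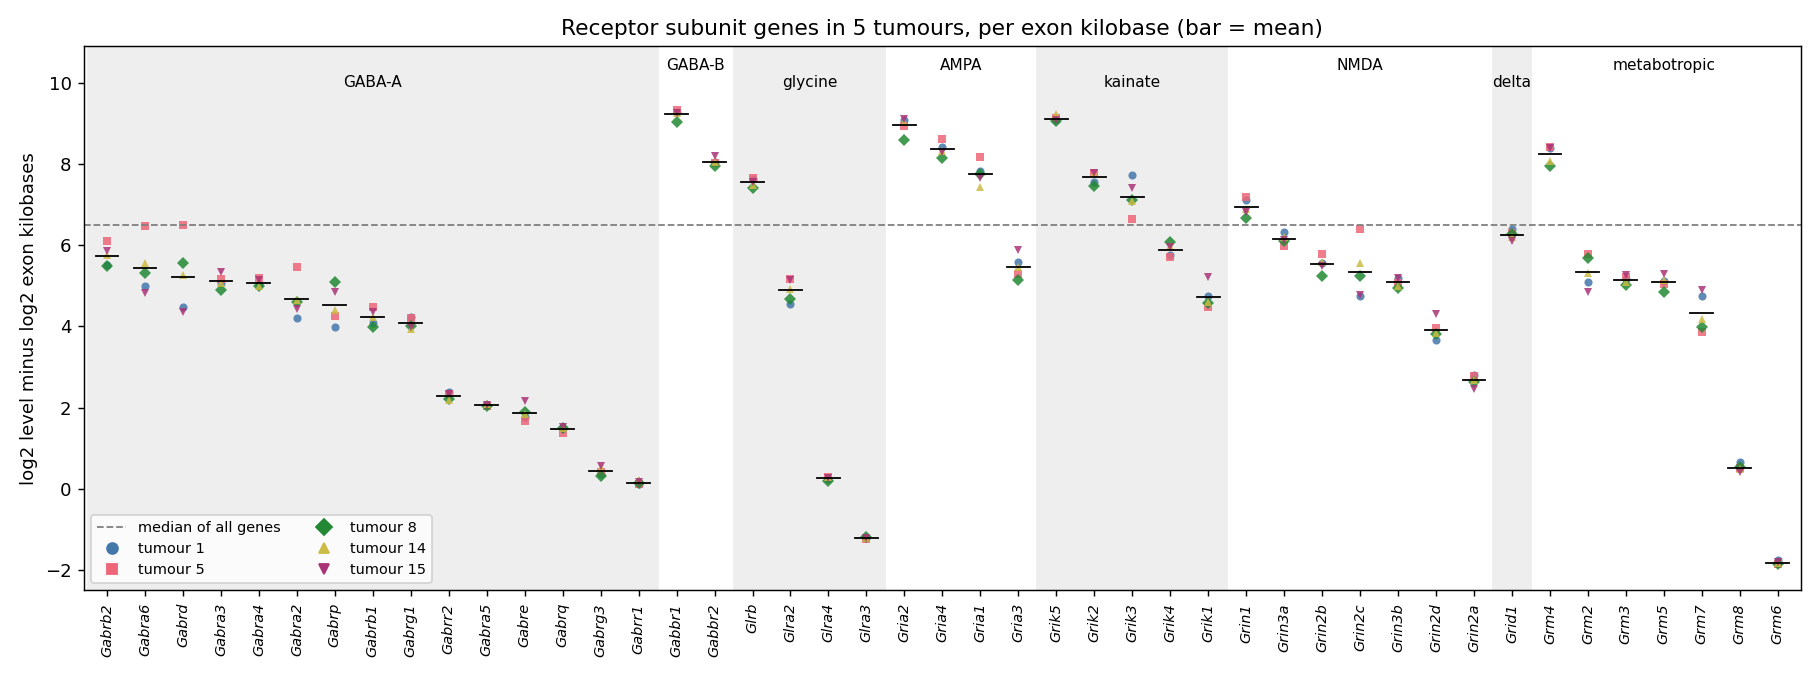
Per-kilobase level (deposited log2 level minus log2 exon kilobases) of the 45 receptor genes on the vertical axis, grouped by receptor class along the horizontal axis. Points are the 5 tumours, short bars the means and the dashed line the median of all genes. Gabbr1, Grik5 and Gria2 lead, and tumour 5 is the highest point of Gabrd, Gabra6 and Grin2c.

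The 10 genes under a mean deposited log2 level of 5 were Gabre (4.11), Gabrg3 (4.01), Gabrq (3.89), Grm8 (3.83), Gabra5 (3.63), Gabrr2 (3.36), Glra3 (1.99), Gabrr1 (1.34), Glra4 (1.27) and Grm6 (0.61). Grm6, the receptor of retinal ON bipolar cells, and the rho subunits Gabrr1 and Gabrr2, best known from the retina, were in this set. So was Gabra5, an α subunit best known from the hippocampus. At such low levels the transformation narrows differences between samples, and the ranges of these genes, at most 1.4-fold, are not read further.

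Among the GABA-A receptor genes described, Gabrb2, a β subunit gene, had the highest mean per-kilobase level (5.74 ± 0.25). It did not lead in every tumour. Per kilobase, Gabrd and Gabra6 (6.48 each) exceeded Gabrb2 (6.10) in tumour 5, and Gabrd (5.55) exceeded Gabrb2 (5.49) in tumour 8. The deposited log2 levels of Gabrb2 were 8.17, 8.77, 8.16, 8.43 and 8.52 in tumours 1, 5, 8, 14 and 15. Tumour 5 was highest and tumours 1 and 8 lowest. Gabrb1, also a β subunit gene, had a deposited mean of 8.02 ± 0.19. Gabrg1, a γ subunit gene, had 7.05 ± 0.14. Gabrd encodes δ, a subunit of GABA-A receptors outside synapses, and its per-kilobase level was 4.35 in tumour 15 and 6.48 in tumour 5, its lowest and highest.

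No α subunit dominated the 5 α genes described. Per kilobase, Gabra6 held 30.9% ± 7.8 of their summed unlogged level, Gabra3 24.6% ± 5.4, Gabra4 23.7% ± 4.0, Gabra2 17.9% ± 2.2 and Gabra5 2.97% ± 0.58. With the longest transcript as the length, Gabra4 came first at 29.4% and Gabra6 held 26.2%. Gabra6 held 42.4% in tumour 5 and 21.8% in tumour 15, where Gabra3 reached 31.3%. Gabra3 (deposited mean 7.08 ± 0.17) and Gabra4 (7.67 ± 0.09) ranged over 1.37-fold and 1.15-fold, less than Gabra6 did (3.14-fold). The median SD of all genes with a mean of at least 5 was 0.11, so only Gabra4 lay below it. Gabra6 exceeded Gabra2 by 0.76 ± 0.24 on the per-kilobase log2 scale, in 5 of 5 tumours. The direction rests on the short transcript of Gabra6: on the deposited scale Gabra6 minus Gabra2 was -0.86 ± 0.24.

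Both GABA-B genes were abundant. Gabbr1, which carries the ligand-binding subunit, had deposited log2 levels of 12.22, 12.28, 11.98, 12.22 and 12.20 in tumours 1, 5, 8, 14 and 15. Gabbr2, the subunit that couples to the G protein, had 10.78, 10.76, 10.70, 10.80 and 10.94. Both were lowest in tumour 8. The proteins pair one to one, while the mRNA of Gabbr1 exceeded that of Gabbr2 by 1.17 ± 0.11 on the per-kilobase log2 scale (2.25-fold), in 5 of 5 tumours.

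Of the glycine receptor genes, Glrb, the β subunit that binds the scaffold gephyrin, had deposited log2 levels of 9.84, 9.87, 9.61, 9.69 and 9.77 in tumours 1, 5, 8, 14 and 15. Glra2, the fetal α subunit, had 6.20, 6.81, 6.32, 6.58 and 6.78. The remaining α genes in the set, Glra3 and Glra4, were among the lowest genes of the whole table, at the 7.18th and 3.86th percentiles of deposited means. Glra1, the adult α subunit, was not analysed here.

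Among the AMPA receptor genes, which carry fast excitation, Gria2 led. It encodes GluA2, the subunit that makes edited receptors impermeable to calcium. Its deposited log2 levels were 13.03, 12.89, 12.55, 13.00 and 13.05 in tumours 1, 5, 8, 14 and 15, with tumour 8 below the others. Gria4 had 11.08, 11.27, 10.79, 10.98 and 10.93, and Gria1, known in the cerebellum from Bergmann glia and Purkinje cells, had 10.41, 10.75, 10.34, 10.02 and 10.25. Relative to Gria2, the per-kilobase difference was -0.59 ± 0.20 for Gria4 and -1.19 ± 0.37 for Gria1, below 0 in 5 of 5 tumours each. Gria2 made up 45.6% ± 4.0 of the AMPA level per kilobase, Gria4 30.2% ± 1.7, Gria1 20.2% ± 3.3 and Gria3 (deposited mean 8.77 ± 0.28) 4.13% ± 0.73. Adarb1, the enzyme that edits the Gria2 transcript at the site that sets calcium permeability, had a deposited mean of 9.85 ± 0.24.

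The kainate receptor genes were led by a subunit that forms no channel alone. Grik5, a high-affinity subunit, had deposited log2 levels of 11.44, 11.49, 11.43, 11.60 and 11.44 in tumours 1, 5, 8, 14 and 15, and was the steadiest of the abundant receptor genes, with a range of 1.12-fold. Grik2, its low-affinity partner, had 11.29, 11.50, 11.17, 11.50 and 11.50. On the deposited scale the 2 genes overlapped, with Grik5 higher in 3 of 5 tumours and a difference of 0.09 ± 0.13. Per kilobase, Grik5 exceeded Grik2 by 1.45 ± 0.13 (2.73-fold) in 5 of 5 tumours and held 55.7% ± 2.9 of the kainate level. Grik3 held 15.1% ± 3.9 of it. Grik4 (deposited mean 8.47 ± 0.16) and Grik1 (7.47 ± 0.30) were lower.

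Grin1, the obligatory GluN1 subunit of every NMDA receptor, had deposited log2 levels of 10.38, 10.45, 9.94, 10.16 and 10.08 in tumours 1, 5, 8, 14 and 15. Of its exon bases, 13.5% lie under exons of Grin1os on the opposite strand, whose own deposited mean was 4.44 ± 0.18, and the sources used here do not say whether the counting used strand. In all, 17 of the 45 genes share exon bases with another gene, 3 of them over 10% (Grin3b, Grin1 and Grm6). Grin2b, the GluN2B subunit of immature neurons, had 10.19, 10.42, 9.87, 10.21 and 10.12, and Grin2a, the GluN2A subunit of many mature neurons, had 6.96, 6.94, 6.81, 6.84 and 6.62. The per-kilobase level of Grin2a minus that of Grin2b was -2.86 ± 0.18, or 7.25-fold in favour of Grin2b, in 5 of 5 tumours. Grin2c, the GluN2C subunit, could not be ordered against Grin2b per kilobase. The difference was -0.80 in tumour 1, 0.61 in tumour 5, 0.01 in tumour 8, -0.01 in tumour 14 and -0.72 in tumour 15. Its mean was -0.18 ± 0.58. On the deposited scale, with no length subtracted, the mean was -2.48 ± 0.58, with Grin2b higher in 5 of 5 tumours. The lack of order thus rests on subtracting length. Grin2c held 52.1% of the GluN2 level per kilobase in tumour 5 and 28.0% in tumour 15, while Grin2b held 34.1% and 46.1%. Grin2d (deposited mean 6.64 ± 0.24) held 14.1% ± 4.0.

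The GluN3 genes encode glycine-binding NMDA subunits. Grin3a, best known from early postnatal neurons, had deposited log2 levels of 9.95, 9.59, 9.72, 9.82 and 9.73 in tumours 1, 5, 8, 14 and 15, and Grin3b had 6.91, 6.80, 6.66, 6.71 and 6.92. Grin3a exceeded Grin3b by 1.07 ± 0.15 per kilobase, in 5 of 5 tumours. The level of Grin3b is uncertain, because 32.1% of its exon bases lie under exons of Tmem259 on the opposite strand, which had a deposited mean of 11.98 ± 0.14. Grid1 encodes a δ glutamate receptor, one of a family that binds cerebellins across the synapse. It had 8.98, 8.87, 8.84, 8.77 and 8.67, highest in tumour 1 and lowest in tumour 15.

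Of the metabotropic receptors described, Grm4, a presynaptic group III receptor of granule neurons, was far the highest. It had deposited log2 levels of 10.96, 11.00, 10.52, 10.64 and 10.97 in tumours 1, 5, 8, 14 and 15 and made up 69.2% ± 2.7 of the summed level of these 7 genes per kilobase. Grm4 exceeded Grm7, another group III receptor, by 3.90 ± 0.41 on the per-kilobase log2 scale (15.0-fold), in 5 of 5 tumours. Grm5, of group I, had a deposited mean of 8.44 ± 0.16. In group II, Grm2 had 7.38, 8.07, 7.98, 7.61 and 7.13, and Grm3, a receptor also found on glia, had 6.76, 6.81, 6.62, 6.71 and 6.88. Grm2 minus Grm3 per kilobase was 0.19 ± 0.46, above 0 in 3 of 5 tumours, so these 2 were not separated on that scale. On the deposited scale, with no length subtracted, Grm2 was higher in 5 of 5 tumours, by 0.88 ± 0.46.

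Within-tumour differences were tested for 10 pairs, on the per-kilobase scale, by flipping the signs of the differences in every possible way (exact permutation, two-sided). With 5 tumours p cannot go below 0.0625, so no pair can pass 0.05. In 8 pairs all 5 tumours had the same sign, and each gave p = 0.0625 (Benjamini-Hochberg adjusted p = 0.0781 over 10 pairs, exact permutation). Grin2c minus Grin2b and Grm2 minus Grm3 each gave an exact permutation p of 0.375 (adjusted 0.375).

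**Figure D2:**
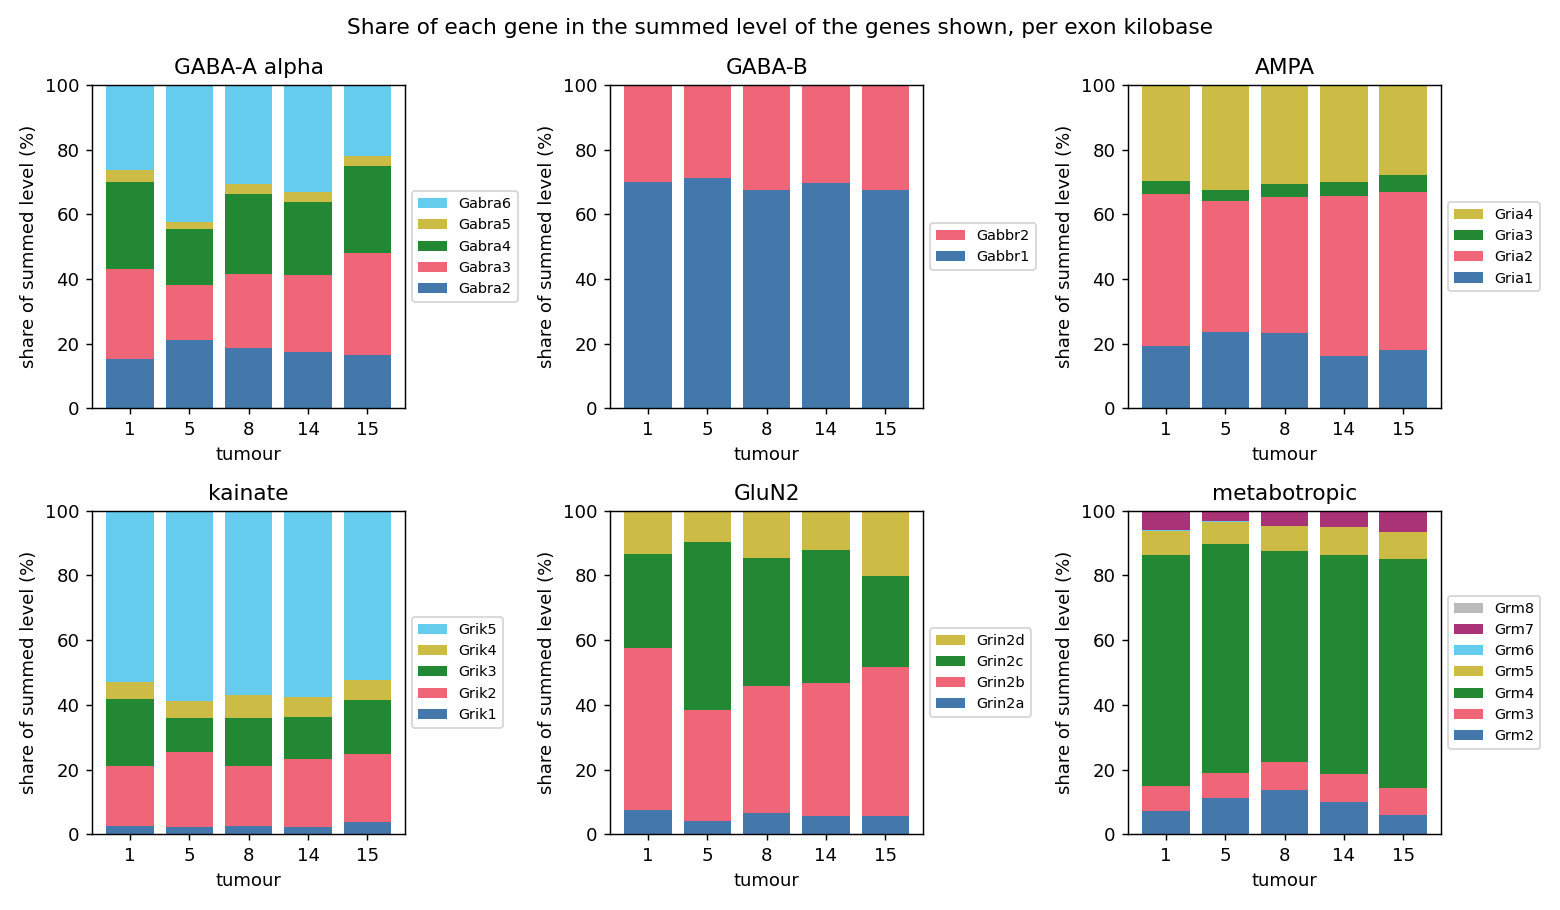
Share of each gene in the summed unlogged per-kilobase level of the genes shown in its panel (vertical axis, percent), with 1 stacked bar for each tumour. Gabra6 holds 42.4% of the α level in tumour 5 and 21.8% in tumour 15, and Grin2c 52.1% and 28.0% of the GluN2 level. In percentage points the AMPA and kainate mixes move less, though Grik3 holds 10.5% of the kainate level in tumour 5 and 20.7% in tumour 1.

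Receptor genes differed more between tumours than most genes did. Among the 35 with a mean deposited log2 level of at least 5, the median SD between tumours was 0.20, against 0.11 for all 13691 genes at that level. The range between the highest and the lowest tumour exceeded 2-fold for 7 of the 35, or 20%, against 3.79% of all genes. At 1.5-fold the counts were 14 of 35, against 14.7%. The 7 genes were Gabrd, Gabra6, Grin2c, Gabra2, Gabrp, Grik3 and Grm7.

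Gabrd, Gabra6, Grin2c and Gabra2 shared one profile, with tumour 5 highest and tumours 1 and 15 lowest. Gabrd had deposited log2 levels of 5.99, 8.01, 7.08, 6.78 and 5.87 in tumours 1, 5, 8, 14 and 15, a range of 4.39-fold. Gabra6 had 6.31, 7.79, 6.62, 6.87 and 6.14 (3.14-fold). Grin2c had 7.09, 8.73, 7.58, 7.89 and 7.09 (3.12-fold). All 3 are textbook products of mature granule neurons, and in each of them tumour 8 or 14 came second. Gabra2, in contrast a subunit of immature neurons, had 7.13, 8.40, 7.53, 7.57 and 7.37 (2.4-fold).

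Grik3, Grm7 and Gabrp did not follow this profile. Grik3, a low-affinity kainate subunit, was lowest in tumour 5: it had deposited log2 levels of 10.88, 9.80, 10.27, 10.25 and 10.58 in tumours 1, 5, 8, 14 and 15 (2.11-fold). Grm7 was also lowest in tumour 5 and highest in tumour 15, with 7.31, 6.41, 6.54, 6.74 and 7.45 (2.06-fold). Gabrp, the π subunit, better known from epithelia such as breast and uterus than from neurons, had 5.75, 6.004, 6.86, 6.15 and 6.60 (2.16-fold), with tumour 8 highest and tumour 1 lowest. Without tumour 5, only Gabrd and Gabrp kept a range over 2-fold, so the count of 7 fell to 2 of 35, against 1.81% of all genes. The count was 5 of 35 without tumour 1 (2.88% of all genes), 6 without tumour 8 (3.56%), 7 without tumour 14 (3.66%) and 6 without tumour 15 (2.32%).

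**Figure D3:**
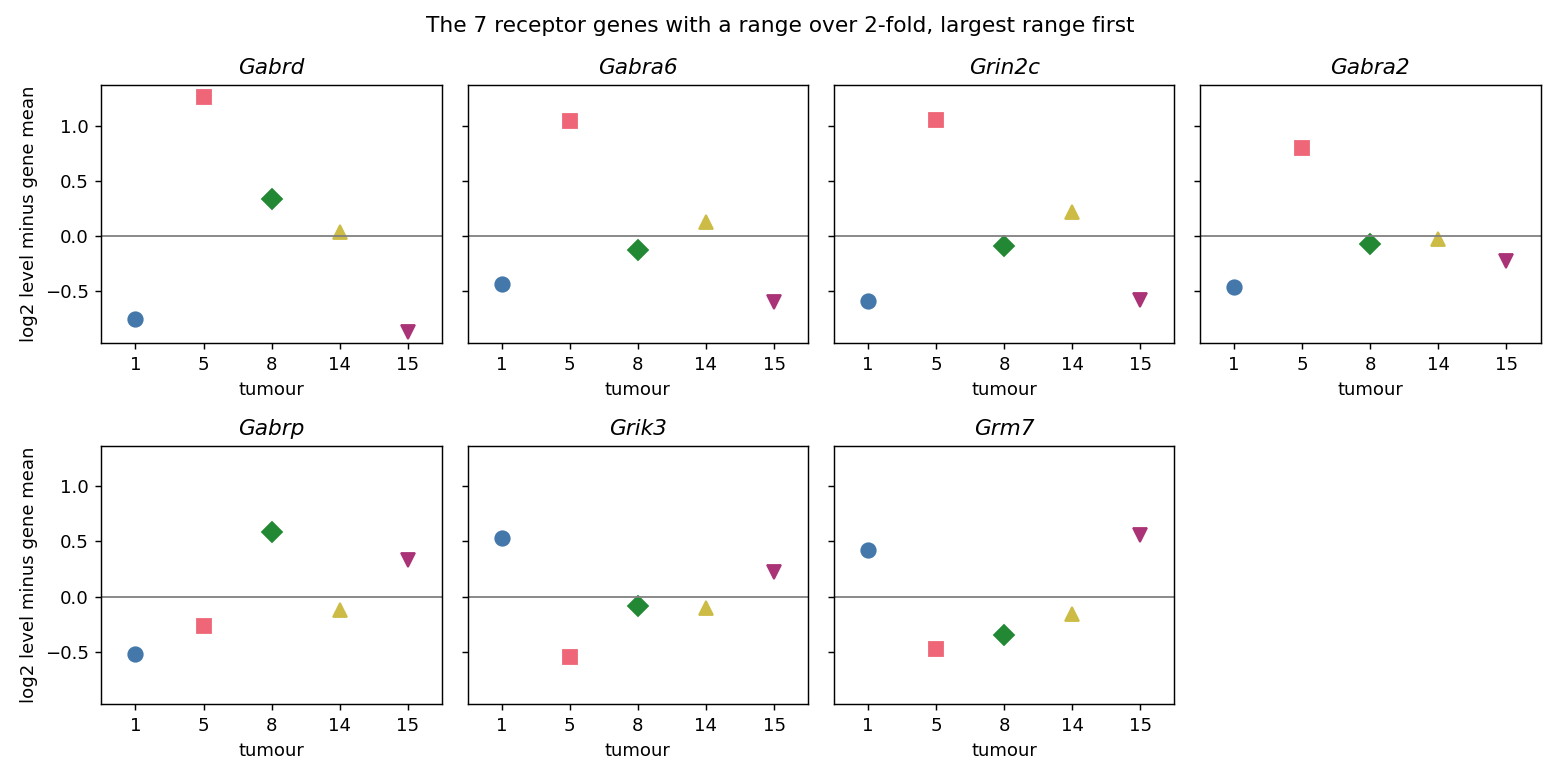
Deposited log2 level minus the gene's mean over the 5 tumours (vertical axis) in each tumour (horizontal axis) for the 7 receptor genes that ranged over 2-fold. Tumour 5 is highest in Gabrd, Gabra6, Grin2c and Gabra2 and lowest in Grik3 and Grm7, and tumour 8 is highest in Gabrp.

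Promoter sequences are shown for the genes with the largest range between tumours. The 250 bases upstream of the RefSeq start (GRCm38.p6, minus strand in all 4) are given for the 4 genes of largest range that had an entry: Gabra6 at chr11:42321073-42321322, Grin2c at chr11:115267244-115267493, Gabra2 at chr5:71095850-71096099 and Gabrp at chr11:33578958-33579207. Capitals mark matches to the motifs named after the sequences.
Gabra6: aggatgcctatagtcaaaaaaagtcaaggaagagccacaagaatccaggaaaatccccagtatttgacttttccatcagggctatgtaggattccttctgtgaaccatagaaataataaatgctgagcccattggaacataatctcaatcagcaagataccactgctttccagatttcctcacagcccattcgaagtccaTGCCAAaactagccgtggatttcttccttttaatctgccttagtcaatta
Grin2c: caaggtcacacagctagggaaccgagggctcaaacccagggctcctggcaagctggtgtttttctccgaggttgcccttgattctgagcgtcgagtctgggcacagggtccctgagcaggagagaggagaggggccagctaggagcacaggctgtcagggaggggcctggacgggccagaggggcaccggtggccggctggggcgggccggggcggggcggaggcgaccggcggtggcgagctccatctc
Gabra2: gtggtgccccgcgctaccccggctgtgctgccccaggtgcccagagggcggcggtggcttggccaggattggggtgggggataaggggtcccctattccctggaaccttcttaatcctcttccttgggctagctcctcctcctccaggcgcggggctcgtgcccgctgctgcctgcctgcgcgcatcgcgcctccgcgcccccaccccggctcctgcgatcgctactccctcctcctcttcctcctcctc
Gabrp: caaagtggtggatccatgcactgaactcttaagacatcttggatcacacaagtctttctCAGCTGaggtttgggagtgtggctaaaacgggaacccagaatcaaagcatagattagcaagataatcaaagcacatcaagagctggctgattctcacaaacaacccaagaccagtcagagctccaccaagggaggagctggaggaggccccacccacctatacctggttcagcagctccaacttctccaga
The Gabra6 window was AT-rich, with 40.8% G+C and a ratio of observed to expected CpG of 0.198. Gabrp resembled it in CpG content, with 49.2% G+C and a ratio of 0.066. Grin2c and Gabra2 had 68.8% and 70.0% G+C and ratios of 0.536 and 0.607. Over the 35 of 45 receptor genes with an entry, the median was 61.2% G+C with a ratio of 0.554, against 52.4% and 0.378 over 32536 different upstream windows of the same length.

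Motifs were searched on both strands, and none overlaps another in the windows shown. TTGGCA, the half-site of the nuclear factor I family, occurs in 12.3% of all windows and in 3 of 35 receptor genes (Gabra6, Gabrg3 and Glra4). In Gabra6 it lies on the opposite strand, printed as TGCCAA, from 50 to 45 bases before the start. The E-box CAGCTG occurs in 13.1% of all windows and in Gabrp and Glra3 among the receptor genes. Another E-box, CAGATG, occurs in 14.4% of all windows and in Gabra5, Gabrr1 and Grin3b. The cyclic AMP response element TGACGTCA (1.56% of all windows) and the GLI site GACCACCCA (0.218%) occur in 0 of the 35. A match is only a run of letters in this window.

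Across the receptor genes as a whole, tumour 5 most often held the highest value and tumour 8 the lowest. Of the 35 genes, 16 (45.7%) were highest in tumour 5, against 24.1% of all genes, and 5 were lowest there, against 24.6%. The 16 were Gabbr1, Gabra2, Gabra4, Gabra6, Gabrb1, Gabrb2, Gabrd, Glra2, Glrb, Gria1, Gria4, Grin1, Grin2b, Grin2c, Grm2 and Grm4. The 5 that were lowest were Grik1, Grik3, Grik4, Grin3a and Grm7, of which 3 are kainate receptor genes. In tumour 8 the shift was small and broad: 17 of 35 (48.6%) were lowest there, against 22.6% of all genes. The 17 included both GABA-B genes, Gria2, Gria3, Gria4, Grik2, Grik5, Grin1, Grin2b and Glrb. In tumour 8 only 5 of 35 (14.3%) lay above their own mean over the tumours, against 49.5% of all genes, with a median deviation of -0.14 on the log2 scale.

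Tumour 15 was highest for 10 of 35, against 21.4% of all genes, and lowest for 5, against 22.9%. Tumour 1 was highest for 5, against 20.2%, and lowest for 5, against 16.9%. Tumour 14 was highest for 2, against 15.8%, and lowest for 3, against 13%, while tumour 8 was highest for 2, against 18.5%. The median deviation was 0.03 in tumour 1, 0.10 in tumour 5, -0.02 in tumour 14 and 0.07 in tumour 15.

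**Figure D4:**
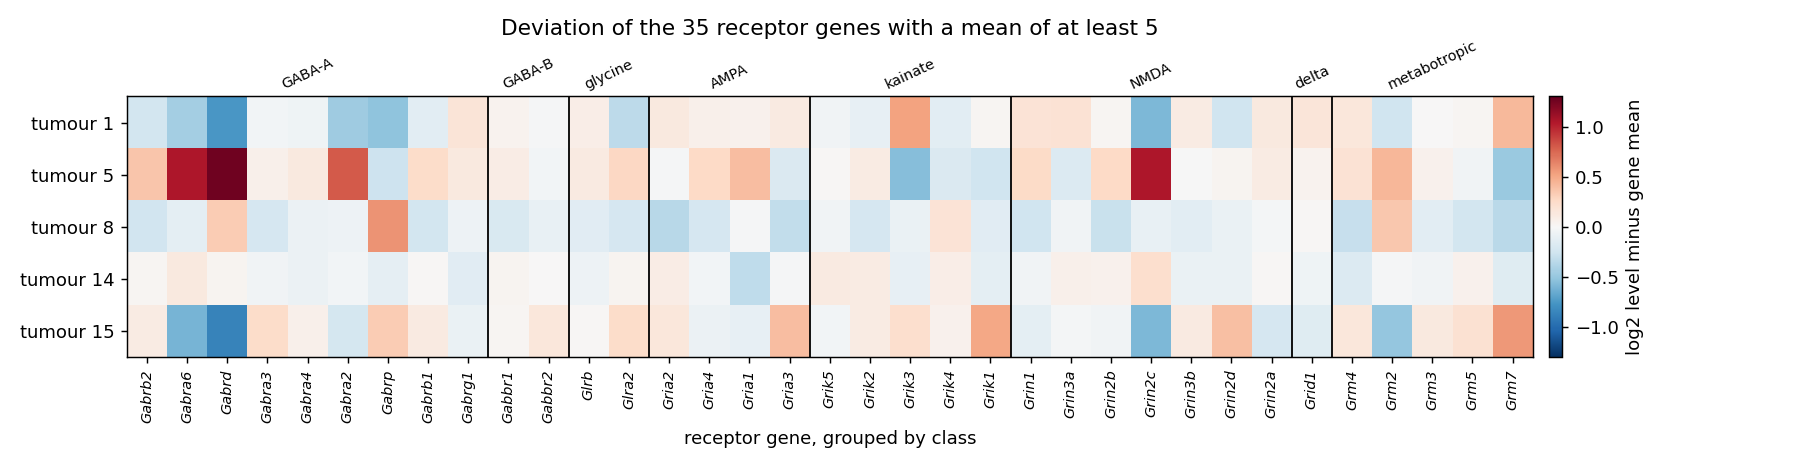
Deposited log2 level minus the gene's mean over the 5 tumours (colour) for the 35 receptor genes with a mean of at least 5 (columns, by class) in each tumour (rows). Tumour 5 holds the strongest reds, in Gabrd, Gabra6, Grin2c and Gabra2, with blue in Grik3 and Grm7, and tumour 8 is pale blue for most genes.

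**Figure D5:**
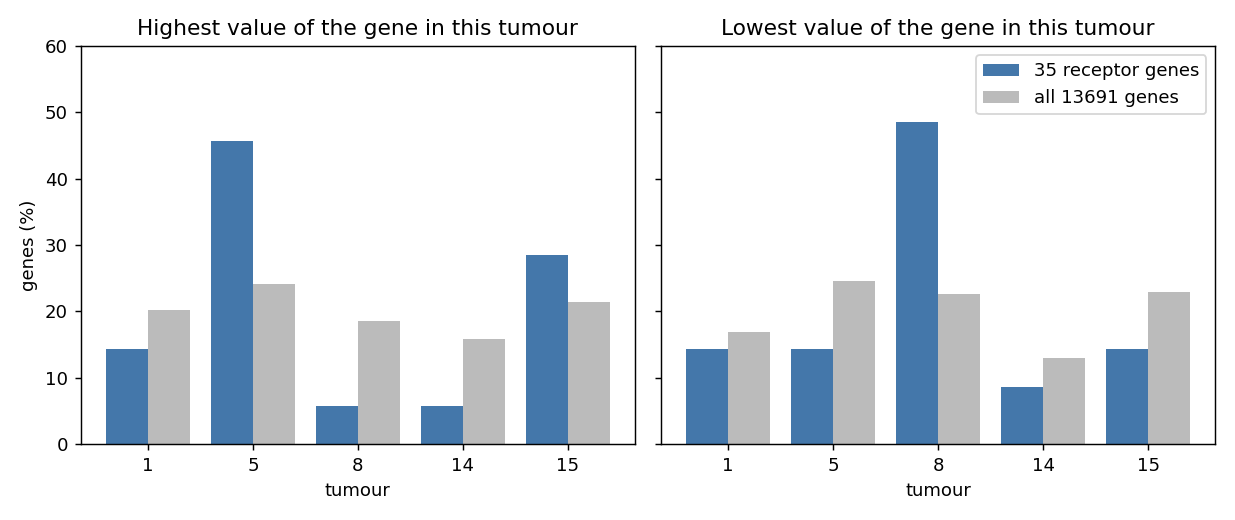
Percent of genes (vertical axis) whose highest value (left) or lowest value (right) fell in each tumour, for the 35 receptor genes (blue) and all 13691 genes with a mean of at least 5 (grey). Of the receptor genes, 45.7% were highest in tumour 5 and 48.6% lowest in tumour 8, against 24.1% and 22.6% of all genes.

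Markers of several cell types also differed between tumours, and their part in the receptor results was not tested. Summed levels are the log2 of the sum of unlogged values. In tumour 8 those of mature granule neuron markers (14.46) and Purkinje cell markers (11.43) were the lowest of the 5 tumours. For Purkinje cell markers tumour 1 was close (11.44). Lowest in tumour 8 were 3 of 12 and 2 of the 7 with a mean of at least 5, against 22.6% of all genes. In tumour 1 the counts were 5 of 12 and 2 of 7, against 16.9%. The medians of both lists were lowest in tumour 1. They were 10.01 there against 10.18 in tumour 8 for granule neuron markers, and 7.59 against 7.81 for Purkinje cell markers. Oligodendrocyte markers were second highest in tumour 8 for 8 of 8, with a summed level of 15.54. Of the mature granule neuron markers, 9 of 12 were highest in tumour 5, against 24.1% of all genes. The list's summed level ran from 14.46 in tumour 8 to 14.79 in tumour 5. Also highest in tumour 5 were 8 of 8 oligodendrocyte markers (summed level 14.52 in tumour 1 to 15.91 in tumour 5). So were 7 of 7 microglia and macrophage markers (12.52 in tumour 15 to 13.36 in tumour 5). The counts were 6 of 6 for choroid plexus markers (13.13 in tumour 1 to 14.78 in tumour 5) and 4 of 5 for endothelial markers (11.85 in tumour 14 to 12.57 in tumour 5). Against the same 24.1%, 4 of 7 Purkinje cell markers with a mean of at least 5 were highest in tumour 5 (11.43 in tumour 8 to 11.67 in tumour 15). It was 4 of 8 for astrocyte and Bergmann glia markers (14.98 in tumour 1 to 15.41 in tumour 5). For unipolar brush cell markers it was 2 of 5 (10.74 in tumour 15 to 11.32 in tumour 5). Of oligodendrocyte precursor markers (14.02 in tumour 5 to 14.58 in tumour 1), 0 of 7 were highest in tumour 5. Of granule neuron progenitor markers it was 0 of 8 (16.65 in tumours 5 and 15 to 16.81 in tumour 14). Of the 8 GABAergic interneuron markers only 3 had a mean of at least 5, and 1 of these was highest in tumour 5. The vesicular GABA transporter Slc32a1 (4.95) and the glycine transporter Slc6a5 (2.07) were under that level. The summed level of this list (11.58 in tumour 15 to 11.97 in tumour 14) was nearly that of Lhx1 alone (deposited mean 11.71). No other marker of the list had a deposited mean above that of Gad1 (6.31).

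The tumours also expressed genes that act around these receptors. Of 67 such genes, 64 had a mean deposited log2 level of at least 5, and 8 (12.5%) ranged over 2-fold, against 3.79% of all genes. Among genes of GABA and glycine synthesis and transport, Slc6a11, a GABA uptake transporter, had a deposited mean of 12.22 ± 0.08. Abat, which breaks GABA down, had 10.92 ± 0.14. The GABA-making enzyme genes Gad1 and Gad2 had 6.31 ± 0.11 and 5.50 ± 0.22. Per kilobase, the means were 9.88 for Slc6a11, 7.97 for Abat, 3.38 for Gad1 and 2.95 for Gad2. Of the 8 genes of this list, 6 had a mean deposited log2 level of at least 5. Of these, 1 ranged over 2-fold, the transporter Slc6a13 (2.03-fold, highest in tumour 5). Among 9 glutamate genes, Glul, the glutamine synthetase of astrocytes, led with 13.48 ± 0.29, followed by the glial transporter Slc1a3 with 12.73 ± 0.23. Of the 8 with a mean of at least 5, 7 were highest in tumour 5, against 24.1% of all genes, and Slc17a7, the vesicular transporter of mature granule neurons, ranged over 2.45-fold. Slc17a6 (per-kilobase level 7.82), the vesicular transporter of younger neurons, stood above Slc17a7 (6.02) on that scale.

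The chloride transporters decide whether GABA excites or inhibits a neuron. Slc12a2 (NKCC1), which loads chloride and prevails in immature neurons, had deposited log2 levels of 11.36, 11.63, 11.45, 11.51 and 11.30 in tumours 1, 5, 8, 14 and 15. Slc12a5 (KCC2), which extrudes chloride and rises as neurons mature, had 7.05, 8.25, 7.50, 7.68 and 7.19. Slc12a5 was the only 1 of 5 genes in this list to range over 2-fold (2.30-fold) and ordered the tumours as Gabra2 and Grin2c did. Per kilobase, the mean was 8.00 for Slc12a2 and 4.64 for Slc12a5. The highest of the list on the deposited scale was the kinase gene Wnk1 (12.65 ± 0.07), followed by Slc12a2 (11.45 ± 0.13).

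In the lists of scaffold and auxiliary genes, 2 of 12, 1 of 13 and 1 of 16 genes ranged over 2-fold, against 3.79% of all genes. Of 12 genes for inhibitory scaffolds and partners, Nlgn2 (12.43 ± 0.09) and Gabarap (12.13 ± 0.05) had the highest deposited means, and Kctd16 (2.99-fold, lowest in tumour 15) and Kctd12 (2.23-fold, highest in tumour 15), auxiliary subunits of GABA-B receptors, ranged over 2-fold. Of 13 AMPA and kainate auxiliary genes, Cacng7 led with 12.25 ± 0.01, followed by Gsg1l with 11.97 ± 0.42, and 7 of the 13 were lowest in tumour 5, against 24.6% of all genes. Gsg1l, an AMPA receptor auxiliary subunit that slows recovery from desensitisation, was the 1 that ranged over 2-fold, with 12.14, 11.24, 12.01, 12.17 and 12.30 in tumours 1, 5, 8, 14 and 15. Of 16 excitatory scaffold genes, Homer2 (11.64 ± 0.17) and Dlg2 (11.38 ± 0.20) had the highest deposited means, 8 of the 16 were lowest in tumour 8, against 22.6% of all genes, and Grip2 (2.71-fold) was the 1 over 2-fold. Of the 4 cerebellins, Cbln1, released by granule neurons at parallel fibre synapses, had 11.85 ± 0.28 and Cbln4 9.72 ± 0.35, while Cbln3 had 7.53, 8.95, 7.96, 7.83 and 7.23, a range of 3.28-fold with tumour 5 highest.

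Many GABA-A genes sit in clusters left by ancient duplications. On chromosome 5 (GRCm38, 70751047 to 72149037) Gabrg1, Gabra2, Gabra4 and Gabrb1 lay within 0.99 of each other in mean per-kilobase level, and their ranges between tumours ran from 1.15-fold (Gabra4) to 2.4-fold (Gabra2). On chromosome 11 (42306437 to 42629028) Gabra6 and Gabrb2 had mean per-kilobase levels of 5.43 ± 0.65 and 5.74 ± 0.25, which overlapped between tumours, and ranges of 3.14-fold and 1.52-fold. On chromosome X (72255999 to 72842602) Gabra3 exceeded its neighbours Gabre and Gabrq, at per-kilobase means of 5.11, 1.86 and 1.47. On chromosome 7 (56716465 to 57510059) Gabrg3 and Gabra5 were both under a deposited mean of 5, as were the rho genes Gabrr1 and Gabrr2 on chromosome 4 (33062999 to 33163588).

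By class, the median deposited log2 level over the members described was 11.49 ± 0.09 for GABA-B (2 genes), 10.68 ± 0.20 for AMPA (4), 10.36 ± 0.40 for kainate (5), 7.68 ± 0.68 for NMDA (7), 6.92 ± 0.29 for metabotropic (7), 6.58 ± 0.49 for GABA-A (15) and 4.27 ± 0.13 for glycine receptor genes (4). The median of all genes averaged 8.54 over the tumours. The NMDA median is the value of Grin2c in every tumour and the kainate median that of Grik3, so the spread of each is that of 1 gene. The GABA-A and metabotropic medians fall on different genes in different tumours, so their spread mixes genes. The glycine median lies midway between Glra2 (6.54) and Glra3 (1.99), at a level that no gene of the class had.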

How the data were processed

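For each gene and tumour the authors deposited a log2 value, taken here as the regularised log of DESeq2 because of how the table is named and the tools listed. STAR 2.4.1, Subread 1.4.6, featureCounts, GRCm38 and mm10 are named per the submitters' processing notes. The sources used here do not name the annotation, strand setting or gene filter. That transformation corrects for library size and draws weakly expressed genes towards their mean. Of the 7 columns, 2 match no sample and were not used, though the transformation may have included them. The depth per sample is unknown, since no read counts were used.

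Exon lengths (union of exons) and positions came from GENCODE M21 and matched 97.5% of symbols. Upstream windows came from RefSeq. At a mean of at least 5, 0 genes had the same value in 2 tumours. Ranges, counts and medians were computed with Python 3.11.15, numpy 2.4.6 and pandas 2.3.3. Only the calls of a range over 2-fold and of a highest value in tumour 5 were tried on simulated data. The members, gene lists and pairs were chosen with earlier results of these data known. Per-tumour values were given for the 2 highest genes per kilobase of each class, those ranging over 2-fold, and the pairs. Of the associated lists, the 2 of highest mean and those over 2-fold were named, and others were chosen after their values were seen. Of the genes the rule found, 5 are not reported here, nor are planned results that need them, and every count, share and median of receptor genes was computed without them. Alternatives were the length used, the minimum mean, column centring, the fold threshold and leaving out each tumour. For single-gene means and family shares they were chosen after seeing the data.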

Additional observations from a re-analysis of the deposited data

Results flagged for a closer look

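Of 53 values examined (35 gene levels, 10 pair differences and 8 class medians), 1 had a tumour far from the others. The deposited log2 level of Gabbr1, the ligand-binding GABA-B subunit, was 11.98 in tumour 8 and 12.20 to 12.28 in the other 4 tumours. Chance sets apart about 5% of groups of this size.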

How the results depend on the processing

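No paired analysis was possible because the labels give 1 group. On the deposited scale, with no length subtracted, Gabra6 minus Gabra2 reversed to -0.86, which follows from the lengths used. The other 9 pairs kept their direction under every length, by the median and without each tumour. The count of receptor genes over 2-fold was 3 of 26 (11.5%) at a minimum mean of 7, against 3.28% of all genes. It was 14 of 35 at 1.5-fold, and 2 to 7 of 35 when 1 tumour was left out, with 2 without tumour 5. With a minimum mean of 7, 26 receptor genes remained. Of these, 1 was highest in tumour 8 (3.8%, against 20.1% of all genes) and 6 in tumour 15 (23.1%, against 19.2%). Lowest were 2 in tumour 1 (7.7%, against 15.6%) and 2 in tumour 15 (7.7%, against 24.5%). Without a filter, all 45 were counted. Highest were 8 in tumour 1 (17.8%, against 19.1%) and 5 in tumour 14 (11.1%, against 15.8%). Lowest were 8 in tumour 5 (17.8%, against 22.4%). With column medians subtracted, 1 of 35 was lowest in tumour 14 (2.9%, against 7.6%) and 8 of 35 in tumour 15 (22.9%, against 32.9%). The counts highest in tumour 5 and lowest in tumour 8 stayed within 1.5 times under these alternatives. Class medians with exon length subtracted were 8.64 for GABA-B, 8.06 for AMPA, 7.16 for kainate, 6.25 for delta (1 gene), 5.39 for NMDA, 4.99 for metabotropic, 4.19 for GABA-A and 2.57 for glycine receptor genes. Over members with a mean of at least 5 they were 7.27 for GABA-A, 7.70 for metabotropic and 8.15 for glycine receptor genes. Of the 29 shares within families, 14 moved by more than their SD with the longest transcript. Depth per sample is unknown, which limits what can be said of the 10 genes under a mean of 5.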
